A study of Homo sapiens with 6 samples.

Results

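Vault RNAs are short noncoding RNAs transcribed by RNA polymerase III. Members were taken by gene symbol: every probe set whose annotated symbol starts with VTRNA. This gave 4 probe sets, for VTRNA1-1, VTRNA1-2, VTRNA1-3 and VTRNA2-1, of 16098 probe sets that carry exactly 1 gene symbol. The group was selected on the same shRNA and vector differences that are given below, which had been seen before, so the members' differences are a description and carry no p-value.

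The VTRNA1 genes lie next to each other on human chromosome 5, and VTRNA2-1 lies elsewhere on the same chromosome. A small share of the VTRNA1 RNAs is packed into the vault, a large cytoplasmic particle built from the major vault protein. The unpacked VTRNA1-1 is known to bind SQSTM1, an autophagy receptor, and to restrain it. VTRNA2-1, also called nc886, is not a vault component. It is known for binding and holding back PKR, the kinase that responds to double-stranded RNA, and in many people the copy inherited from the mother is methylated and silent.

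The arrays were run on MDA-MB-231-Luc-D3H1, a human triple-negative breast cancer line that expresses luciferase. They stably carried shRNA2, shRNA1 or the empty vector, all in the retroviral plasmid pMKO.1-GFP. Both hairpins target LincIN, a long noncoding RNA studied together with NF90, a protein that binds double-stranded RNA. Each group had 2 Affymetrix Human Gene 2.0 ST arrays, 6 in all, and the series text places the RNA in 2 independent experiments without saying which array came from which. In this plasmid a U6 promoter, which RNA polymerase III also transcribes, drives the hairpin. The vector cells carried no hairpin, so the effects of carrying a hairpin and of targeting LincIN cannot be told apart. Each group was 1 line, and the p-values given for other genes measure only the spread between arrays of the same group. That spread was pooled over the 3 groups and moderated by that of all named probe sets.

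The values are log2 signals after RMA, the authors' background correction, normalization across arrays and summary per probe set. One unit is a doubling, a level of one probe set cannot be set against a level of another, and the table has no call of detection. The array medians lay between 6.12 and 6.30, and arrays of the same group correlated at 0.970 to 0.988, against 0.961 to 0.979 across groups. LincIN was not analysed here, so its knockdown was not checked. Of 6 genes expected to be high in this line, 4 had a probe set, VIM, CD44, KRT18 and S100A4, and each had a probe set above the medians on all arrays. Of 6 expected to be low, 4 were measured: PGR and ESR1 lay at or below 6.17 on all arrays, whereas GATA3 and EPCAM lay at or above 7.46. Of 5 blood and endothelial markers only PECAM1 was measured, at 5.12 to 5.65. In RNA from whole cultures, more transcript per cell and more cells with the transcript cannot be told apart. All RNA had passed through RNeasy columns, and the recovery of short RNAs, the vault RNAs included, was not measured.

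The 4 vault RNAs were higher in shRNA2 cells than in vector cells without overlap of the arrays, by 2.07-fold to 5.51-fold. In shRNA1 cells VTRNA2-1 and VTRNA1-3 were also above both vector arrays, and VTRNA1-1 and VTRNA1-2 overlapped with them. VTRNA2-1 had the largest difference from vector with shRNA2, and with shRNA1 the order of the vault RNAs depended on single arrays. The study's supplementary gene list labels its ratio as shRNA over vector but runs the opposite way to the deposited values as their arrays are labelled, and the directions here follow the array labels.

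VTRNA2-1 had signals of 10.04 and 9.72 in shRNA2 cells, 9.21 and 8.18 in shRNA1 cells, and 7.78 and 7.06 in vector cells. The 3 groups did not overlap, and their order was shRNA2, then shRNA1, then vector. The means were 9.88 ± 0.225, 8.70 ± 0.728 and 7.42 ± 0.506 in shRNA2, shRNA1 and vector cells (SD, n = 2 each). The shRNA2 mean exceeded the vector mean by 2.46 ± 0.369 (SE) on the log2 scale, or 5.51-fold, and the 4 differences between single arrays ran from 1.95 to 2.98. It ranked 5 among the 16098 differences, counted from the highest. For shRNA1 the difference from vector was 1.28 ± 0.369, or 2.43-fold, at rank 29. Its single-array differences were wider, from 0.407 to 2.15, since the 2 shRNA1 arrays differed by 1.03 between themselves. Without shRNA1 replicate 1 the difference was 0.765, and without shRNA1 replicate 2 it was 1.80.

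VTRNA1-1, the vault RNA that binds SQSTM1, had signals of 10.09 and 9.82 in shRNA2 cells, 8.06 and 7.99 in shRNA1 cells, and 8.71 and 7.62 in vector cells. Both shRNA2 arrays were above the other 4, and both shRNA1 arrays lay between the 2 vector arrays. The shRNA2 mean was above the vector mean by 1.79 ± 0.328, or 3.47-fold, at rank 25, with single-array differences of 1.11 to 2.47. The shRNA1 mean of 8.02 ± 0.051 differed from the vector mean of 8.16 ± 0.772 by -0.138 ± 0.328 (means with SD, n = 2). The vector arrays were 1.09 apart, a gap that only 1.80% of all named probe sets exceeded in vector cells, and 1 vector array therefore decides much of both values. Without vector replicate 1 the shRNA1 difference was 0.407, and without vector replicate 2 it was -0.684. The shRNA2 difference was 2.34 and 1.25 under the same omissions.

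VTRNA1-2 had signals of 7.37 and 7.24 in shRNA2 cells, 5.53 and 6.42 in shRNA1 cells, and 5.64 and 5.50 in vector cells. The shRNA2 arrays were again above the other 4. One shRNA1 array lay between the vector arrays and the other lay above both. The shRNA2 mean exceeded the vector mean by 1.73 ± 0.280, or 3.32-fold, at rank 33, and the single-array differences stayed within 1.59 to 1.87. The shRNA1 difference from vector was 0.404 ± 0.280, at rank 1311, and it was 0.853 without shRNA1 replicate 1 and -0.045 without shRNA1 replicate 2. Both vector signals lay under the array medians.

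VTRNA1-3 had signals of 8.75 and 8.54 in shRNA2 cells, 8.85 and 8.13 in shRNA1 cells, and 7.34 and 7.85 in vector cells. Here the 2 hairpin lines overlapped and all 4 of their arrays were above both vector arrays. The difference from vector was 1.05 ± 0.277 (2.07-fold, rank 160) with shRNA2 and 0.897 ± 0.277 (1.86-fold, rank 110) with shRNA1. The single-array differences ran from 0.691 to 1.41 with shRNA2 and from 0.281 to 1.51 with shRNA1. Without shRNA1 replicate 1 the shRNA1 difference was 0.538. The shRNA2 difference of VTRNA1-3 was the smallest of the 4 vault RNAs.

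**Figure D1:**
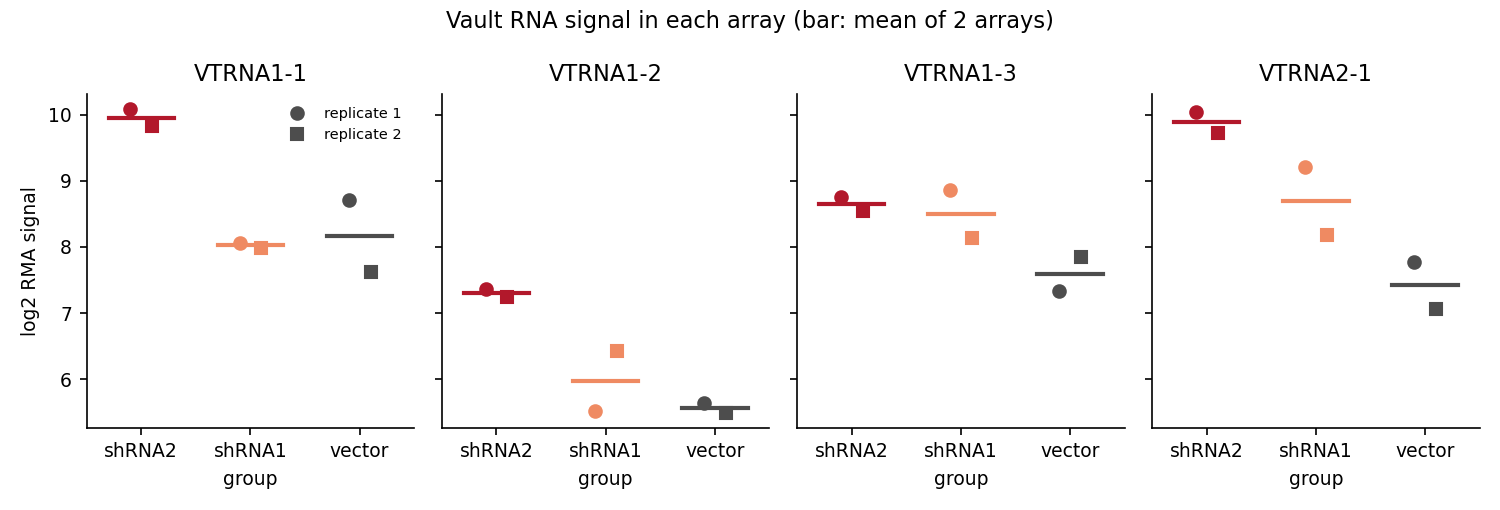
Signal of each vault RNA on the log2 RMA scale (vertical axis) in the arrays of shRNA2, shRNA1 and vector cells; circles are replicate 1, squares replicate 2, and bars the mean of 2 arrays. The shRNA2 arrays lie above the vector arrays for all 4 RNAs, and the shRNA1 arrays do so for VTRNA1-3 and VTRNA2-1 only.

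Against all 16098 named probe sets, both shRNA2 arrays were above both vector arrays for 4 of 4 vault RNAs and for 21.6% of probe sets. The corresponding counts for shRNA1 over vector were 2 of 4 and 21.7%. The median difference of the vault RNAs was 1.76 with shRNA2 and 0.650 with shRNA1, beside medians of -0.041 and 0.051 over all probe sets. The 99th percentile of all differences was 1.04 for shRNA2 and 0.798 for shRNA1. The shRNA2 differences of all 4 vault RNAs were above that percentile, as were the shRNA1 differences of VTRNA2-1 and VTRNA1-3. These comparisons share the vector arrays, and the vault RNAs were chosen on them, so nothing further is read from the counts.

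Between the hairpin lines, VTRNA1-1 differed most, by 1.93 ± 0.328 or 3.82-fold higher in shRNA2 than in shRNA1 cells, at rank 5 of all probe sets. Its single-array differences ran from 1.76 to 2.10. That standard error is pooled over all groups, so the spread of the vector arrays enters it. VTRNA1-2 was higher by 1.33 ± 0.280 (2.51-fold, rank 33), a value that was 0.878 without shRNA1 replicate 1 and 1.78 without shRNA1 replicate 2. VTRNA2-1 was higher by 1.18 ± 0.369 (2.27-fold, rank 57), with single-array differences of 0.509 to 1.86, and by 0.668 without shRNA1 replicate 2. VTRNA1-3 differed by 0.154 ± 0.277 with overlapping arrays, and by -0.205 without shRNA1 replicate 2. Both shRNA2 arrays were above both shRNA1 arrays for 3 of 4 vault RNAs and for 18.0% of all named probe sets, and the median differences were 1.26 and -0.078. The arrays of VTRNA1-3 and VTRNA2-1 thus separated hairpin from vector cells. Those of VTRNA1-1, VTRNA1-2 and VTRNA2-1 separated shRNA2 cells from the rest. Whether the vault RNAs differed among themselves in their response was not tested.

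**Figure D2:**
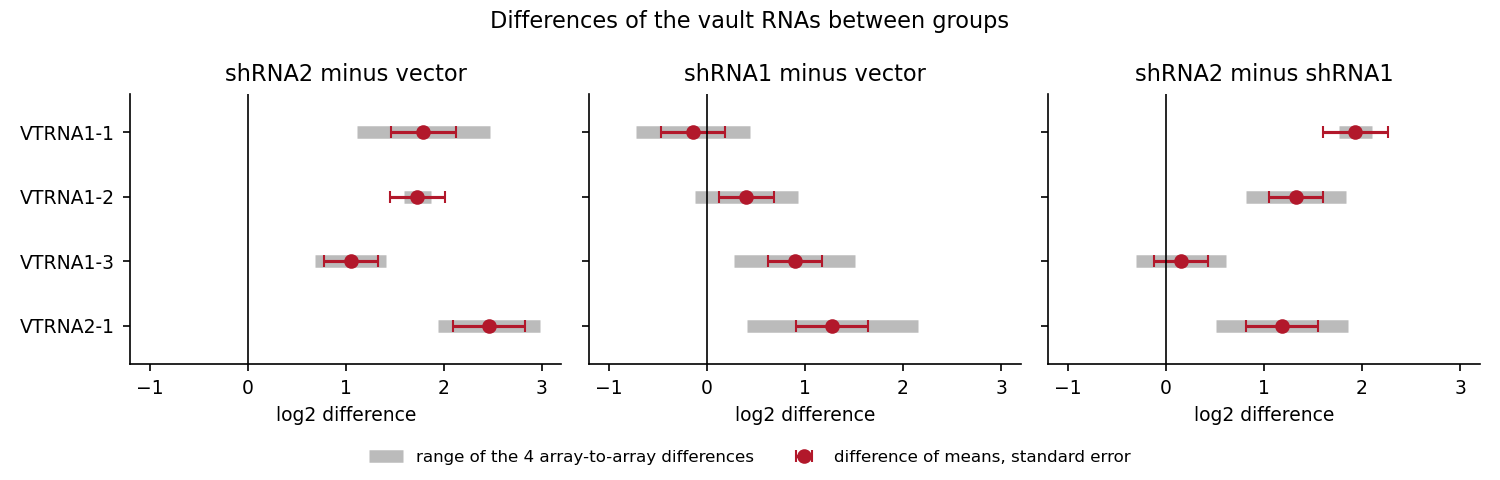
Differences of group means on the log2 scale (horizontal axis) for each vault RNA, with the standard error as a capped line and the range of the 4 single-array differences as a grey band. The bands lie above 0 for 4 RNAs in shRNA2 minus vector, for VTRNA1-3 and VTRNA2-1 in shRNA1 minus vector, and for all but VTRNA1-3 in shRNA2 minus shRNA1.

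The spread within groups was uneven. In shRNA2 cells the 2 arrays of each vault RNA differed by 0.128 to 0.318, and 13.3% of all probe sets or more differed by a larger amount. In shRNA1 cells VTRNA2-1 and VTRNA1-2 differed by 1.03 and 0.898 between arrays, gaps that 1.90% and 3.10% of probe sets exceeded, while VTRNA1-1 differed by 0.072. The standard deviation of the array difference over all named probe sets was 0.231 in shRNA2, 0.395 in shRNA1 and 0.397 in vector cells.

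The nearest genes with a named probe set were read as a comparison, although many lie well away from the vault RNA genes. In the RefSeq order, 2 to 11 other genes lie between VTRNA1-1 and those before it, and 22 to 27 between VTRNA1-3 and those after it. Of the 10 nearest named genes of the VTRNA1 genes, 5 on each side and 13 probe sets in all, none passed an adjusted p of 0.05 in limma for either hairpin against vector. An unadjusted p was under 0.05 for 3 of these probe sets with shRNA2 and 1 with shRNA1. Here and below, the share of all named probe sets under this unadjusted cut was not counted, so such counts are not read as an excess. Over all named probe sets, 1.07% were called higher and 1.50% lower with shRNA2, and 0.497% and 1.37% with shRNA1. The neighbours' shRNA2 differences ran from -0.776 to 0.294 and their shRNA1 differences from -0.503 to 0.373. HARS1, the cytosolic histidyl-tRNA synthetase, had 7.94 and 8.30 in shRNA2 cells, 9.05 and 8.53 in shRNA1 cells, and 9.09 and 8.71 in vector cells. Its shRNA2 arrays were below both vector arrays, opposite in direction to VTRNA1-1. PCDHB2, a clustered protocadherin on the other side, differed from vector by -0.773 with shRNA2 (limma adjusted p = 0.0970). RefSeq also places an uncharacterised long noncoding RNA across the VTRNA1 genes, and whether its transcripts add to their signals was not tested.

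The 10 nearest named genes of VTRNA2-1 were separated from it by 0 (SMAD5-AS1) to 17 (HNRNPA0) other genes. Their 10 probe sets gave 0 calls as well, with 1 unadjusted p under 0.05 for each hairpin. Their differences ran from -0.699 to 0.377 with shRNA2 and from -0.446 to 0.357 with shRNA1. SMAD5, a transcription factor of BMP signalling, had 9.87 and 9.76 in shRNA2 cells, 10.32 and 9.84 in shRNA1 cells, and 9.92 and 9.58 in vector cells. Its groups overlapped. The lowest value was that of HNRNPA0, an RNA-binding protein, at -0.699 with shRNA2 (limma adjusted p = 0.0801). The others were LINC02900, NEUROG1, CXCL14, SLC25A48-AS1, LECT2, SMAD5-AS1, KLHL3 and MIR874 here, and TMCO6, CD14, WDR55, DND1, PCDHB1, PCDHB3, PCDHB4 and PCDHB5 at the VTRNA1 genes.

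**Figure D3:**
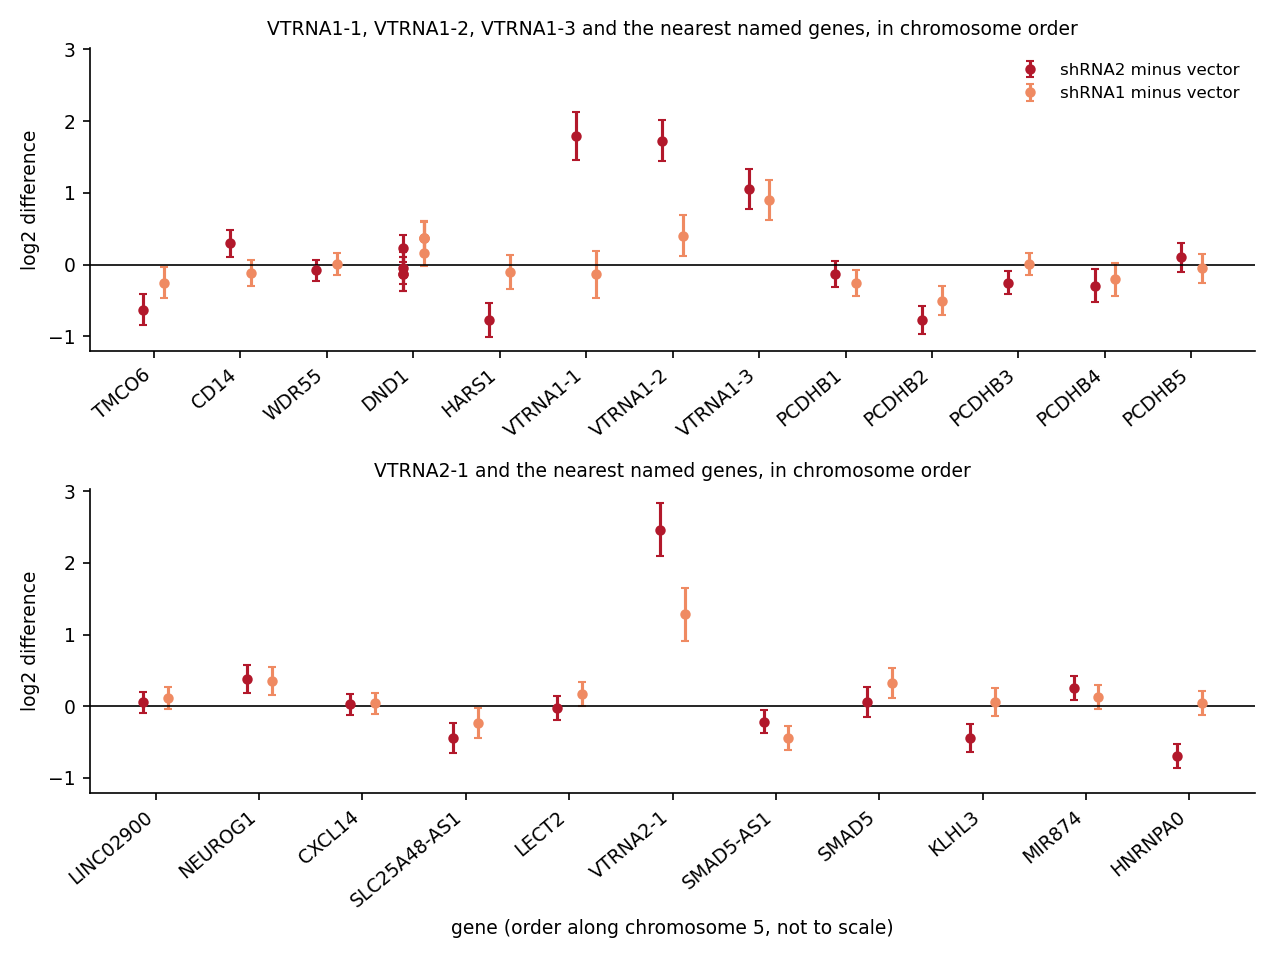
Log2 difference from vector cells (vertical axis, with standard errors) for shRNA2 and shRNA1 in the vault RNAs and their nearest named genes, in their order on chromosome 5, with up to 27 other genes between and not to scale. The vault RNAs reach 1.05 to 2.46 with shRNA2, and the highest neighbour reaches 0.377.

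Of the vault particle proteins only MVP, the major vault protein, had a named probe set. It had signals of 8.90 and 8.97 in shRNA2 cells, 8.86 and 9.15 in shRNA1 cells, and 8.70 and 9.29 in vector cells. Its groups overlapped, and its differences from vector were -0.065 ± 0.223 with shRNA2 and 0.009 ± 0.223 with shRNA1 (limma adjusted p = 0.921 and 0.995). PARP4 and TEP1, the other particle proteins, were not analysed here.

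Of 10 proteins that bind or process vault RNAs, 6 were measured and 0 passed the adjusted threshold with either hairpin, while 1 had an unadjusted p under 0.05 with each. Their median difference was 0.070 with shRNA2 and 0.003 with shRNA1. The 2 with the highest mean signal were SRSF2, a splicing factor known to bind VTRNA1-1, and EIF2AK2, which encodes PKR. SRSF2 differed from vector by 0.094 with shRNA2 and 0.079 with shRNA1. EIF2AK2 had 10.66 and 10.70 in shRNA2 cells, 10.31 and 10.66 in shRNA1 cells, and 10.34 and 10.67 in vector cells, so that the arrays of both hairpin lines overlapped with those of vector cells. Another 3 were picked for their role after their values were seen. DUSP11, the phosphatase that trims the first phosphates of polymerase III transcripts, differed by -0.623 with shRNA2 and -0.846 with shRNA1 (limma adjusted p = 0.324 and 0.298). SSB, the La protein that holds the ends of new polymerase III transcripts, differed by 0.518 and 0.023 in the same comparisons (adjusted p = 0.354 and 0.986). The mRNA of SQSTM1, whose protein VTRNA1-1 binds, had 8.46 and 8.46 in shRNA2 cells, 8.54 and 8.60 in shRNA1 cells, and 8.81 and 8.99 in vector cells. It was below both vector arrays in both hairpin lines, by -0.442 with shRNA2 and -0.330 with shRNA1, without passing the test (limma adjusted p = 0.171 and 0.447).

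RNA polymerase III and its factors were represented by 9 of 30 genes, and 0 passed the adjusted threshold with either hairpin, nor was any unadjusted p under 0.05. Their differences ran from -0.214 to 0.625 with shRNA2 and from -0.250 to 0.274 with shRNA1, with medians of 0.062 and -0.068. POLR3C, a subunit of the enzyme, had 10.56 and 10.65 in shRNA2 cells, 10.40 and 10.22 in shRNA1 cells, and 10.52 and 10.50 in vector cells. TBP, the TATA-binding protein, differed from vector by -0.214 with shRNA2 and -0.003 with shRNA1. MAF1, the repressor of polymerase III, differed by -0.035 and -0.068, and its arrays spread over 0.646 within vector cells. Its values were picked after they were seen, for its role.

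Double-stranded RNA sensing was represented by 10 of 18 genes. Their differences ran from -0.903 to 0.381 with shRNA2 and from -0.618 to 0.501 with shRNA1. RIGI was the lowest with both hairpins, without passing the test (limma adjusted p = 0.101 and 0.347). OASL, an interferon-induced relative of the oligoadenylate synthetases, was the only call, lower with shRNA2, beside 1.50% of all named probe sets. It had 8.46 and 8.22 in shRNA2 cells, 9.54 and 9.73 in shRNA1 cells, and 9.13 and 9.25 in vector cells. It fell by 0.849 ± 0.163 with shRNA2 (limma adjusted p = 0.0476). With shRNA1 it was above both vector arrays, by 0.447 ± 0.163 without passing the test (adjusted p = 0.323). The shRNA2 call of OASL was at the edge of the threshold: without any 1 of the 6 arrays its adjusted p was between 0.0556 and 0.395. The list as a whole had 2 unadjusted p under 0.05 with shRNA2 and 5 with shRNA1, and medians of -0.130 and 0.156. Without the share of all named probe sets under that cut, no excess is read from these counts. In autophagy 17 of 20 genes were measured and 0 passed the adjusted threshold, with 6 and 4 unadjusted p under 0.05 and medians of 0.040 and -0.142 for shRNA2 and shRNA1. Their differences ran from -0.612 to 0.454 with shRNA2 and from -0.851 to 0.438 with shRNA1. GABARAPL1 was the lowest with both hairpins (limma adjusted p = 0.118 and 0.0668). GABARAP, a ubiquitin-like protein of the autophagosome membrane, had 12.12 and 11.94 in shRNA2 cells, 11.83 and 11.55 in shRNA1 cells, and 11.93 and 11.60 in vector cells. TAX1BP1, an autophagy receptor, differed from vector by 0.428 with shRNA2 and 0.131 with shRNA1.

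**Figure D4:**
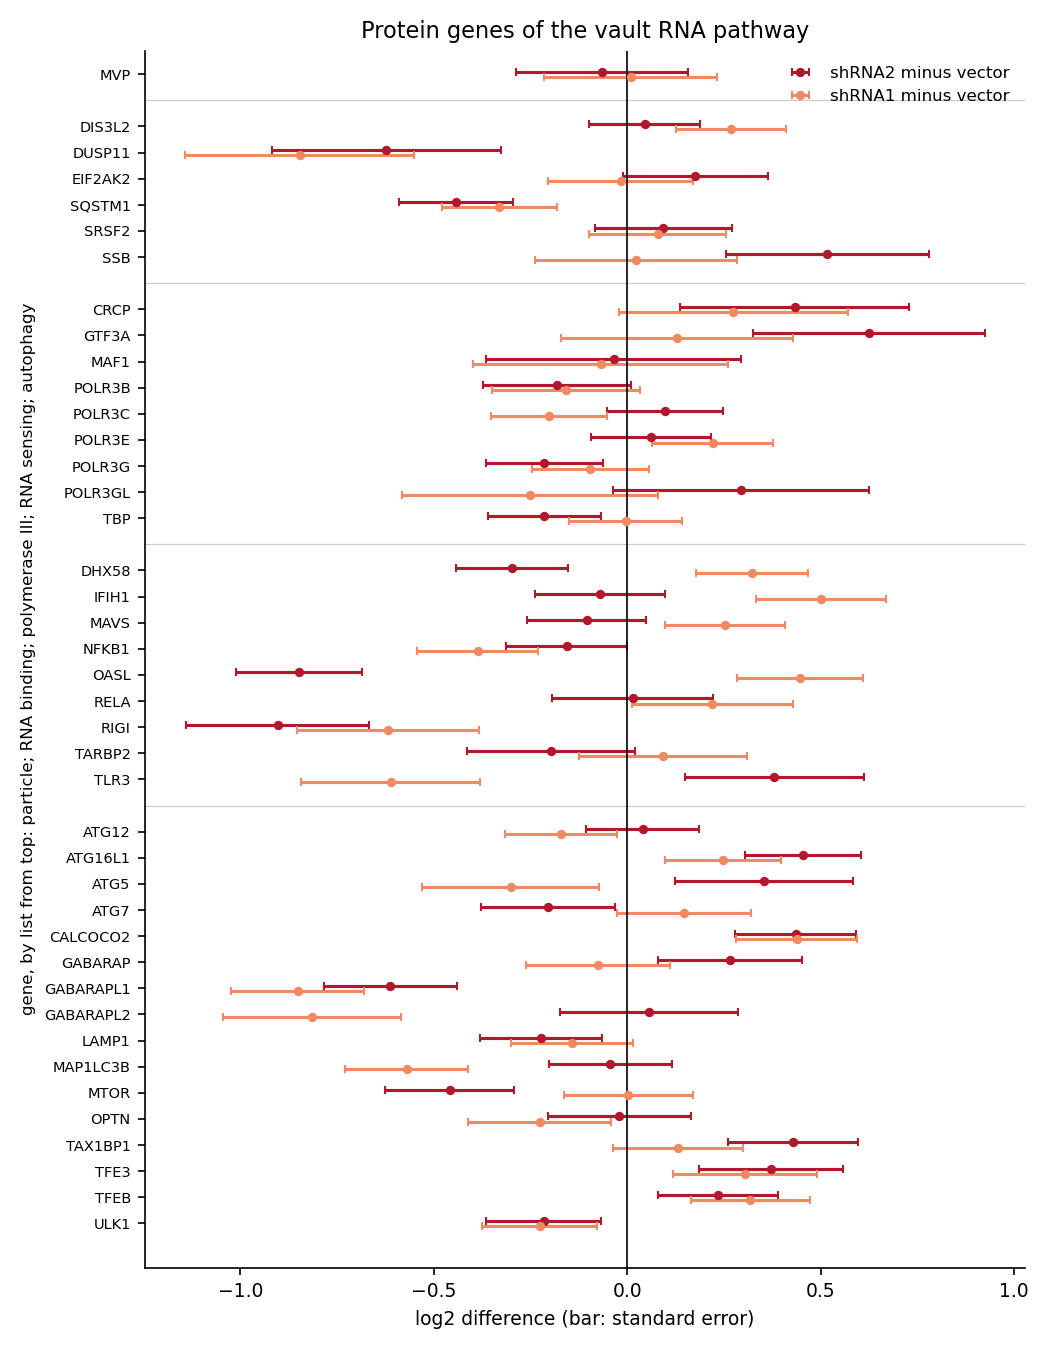
Log2 difference from vector cells (horizontal axis, with standard errors) of the measured protein genes of the 5 lists, for shRNA2 and shRNA1; EIF2AK2 and SQSTM1, which belong to 2 lists each, are drawn once. OASL with shRNA2, at -0.849, is the only value past the adjusted threshold.

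Other small RNAs were read beside the vault RNAs. Their recovery on the RNeasy columns was not measured either. Among other polymerase III transcripts 16 probe sets were named, 12 of them with distinct values: RMRP and RPPH1, the RNAs of the MRP and P ribonucleases, and the SNAR family, small RNAs that bind NF90. None passed the adjusted threshold with either hairpin, and no unadjusted p was under 0.05. Their median differences were 0.241 with shRNA2 and 0.174 with shRNA1. RMRP had 13.58 and 13.69 in shRNA2 cells, 12.42 and 13.83 in shRNA1 cells, and 12.14 and 13.76 in vector cells. The groups overlapped, and the replicate 1 arrays of shRNA1 and vector cells stood well below the other 4. One SNAR-B1 probe set, which had the highest mean of that family, had 9.81 and 10.36 in shRNA2 cells, 9.21 and 10.77 in shRNA1 cells, and 7.96 and 10.23 in vector cells, with the same arrays low.

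The scaRNAs, guide RNAs of the Cajal bodies, had 23 named probe sets. Of these, 2 rose with shRNA2 (limma, beside 1.07% of all probe sets) and 0 with shRNA1, and 9 and 1 had an unadjusted p under 0.05. Their medians were 0.844 with shRNA2 and 0.423 with shRNA1, beside the medians of -0.041 and 0.051 over all probe sets. SCARNA4 had 12.17 and 11.85 in shRNA2 cells, 11.03 and 9.95 in shRNA1 cells, and 10.10 and 9.77 in vector cells. The order of its group means was that of VTRNA2-1, and it rose by 2.08 ± 0.341 with shRNA2 (limma adjusted p = 0.0301). SCARNA18 rose by 0.844 ± 0.150 (adjusted p = 0.0392). Without either shRNA2 array or either vector array neither call was kept. Both shRNA2 arrays were above both vector arrays for 14 of the 23 scaRNAs, beside 21.6% of all named probe sets.

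In shRNA1 and vector cells the scaRNA levels followed the replicate numbers, and the vault RNA levels did not show the same order. The median scaRNA signal was 8.62 and 8.59 in shRNA2 cells, 7.40 and 8.90 in shRNA1 cells, and 7.25 and 8.43 in vector cells. Replicate 2 was above replicate 1 for 16, 21 and 21 of the 23 scaRNAs in shRNA2, shRNA1 and vector cells, and for 0, 1 and 1 of the 4 vault RNAs. Over all named probe sets the shares were 52.0%, 36.5% and 48.6%. VTRNA1-1 and VTRNA2-1 were lower in replicate 2 of each group, opposite to RMRP. The part that the difference between the replicate numbers had in the vault RNA values was not tested.

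**Figure D5:**
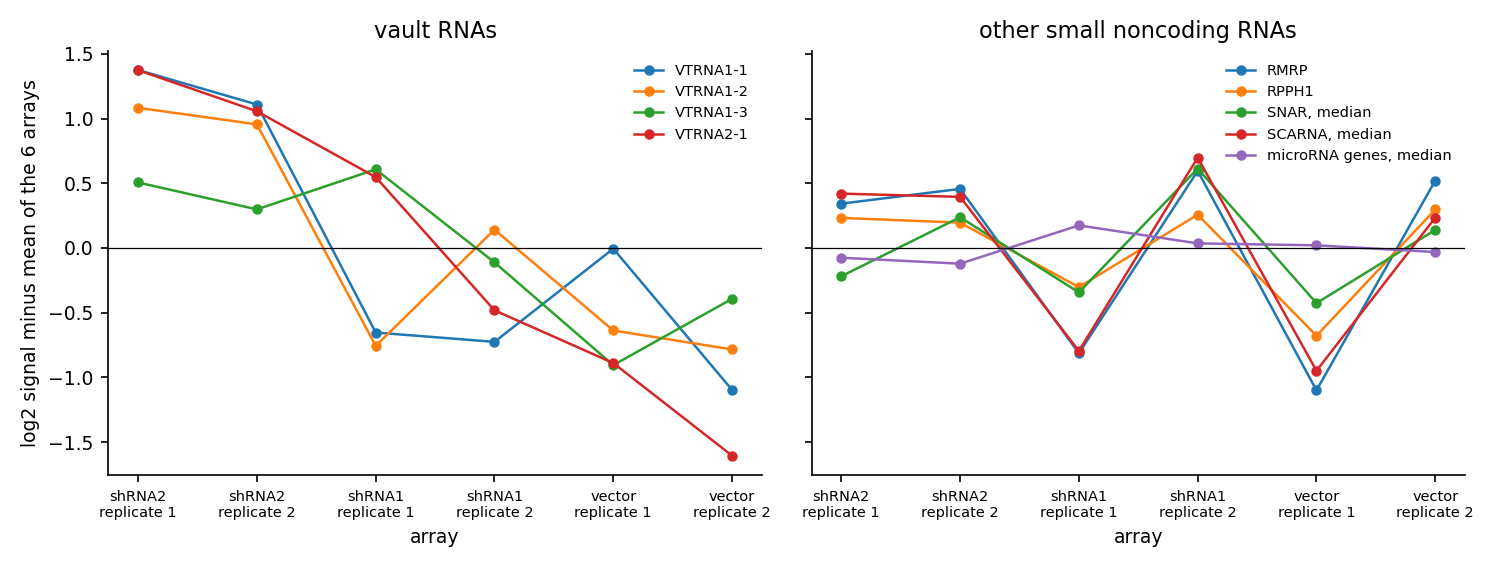
Signal of each array minus the mean of the 6 arrays on the log2 scale (vertical axis), for the 4 vault RNAs (left) and for other small noncoding RNAs or the median of a class (right). The right panel shows replicate 1 of shRNA1 and vector cells low for RMRP and the scaRNA median (7.40 and 7.25 against 8.90 and 8.43 in replicate 2), and the left panel shows the shRNA2 arrays high for VTRNA1-1, VTRNA1-2 and VTRNA2-1.

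Genes for microRNAs, which RNA polymerase II mostly transcribes, gave 1236 probe sets with 1172 distinct sets of values. Some calls below therefore count the same values more than once. Of these, 12 were called higher and 19 lower with shRNA2, and 1 higher and 4 lower with shRNA1. The shares over all named probe sets were 1.07% and 1.50% with shRNA2, and 0.497% and 1.37% with shRNA1. Without either shRNA2 array the 31 shRNA2 calls were 0, and without vector replicate 1 or 2 they were 9 and 11. The 5 shRNA1 calls were 1 to 7 without 1 array. The medians of the microRNA genes were -0.094 with shRNA2 and 0.101 with shRNA1. The call that was higher with shRNA1 was MIR548I2, and the lower ones were MIR4500, MIR320C1 and both probe sets of MIR3690. These were named after their values were seen. MIR548I2, MIR4500 and both probe sets of MIR3690, which had identical values on every array, were also called with shRNA2, in the same direction. MIR320C1 was not (limma adjusted p = 0.878). Between the hairpin lines 0 named probe sets of any kind (0%) were called higher with shRNA2 and 1, MIR539, was called lower (0.00621%), a call that was lost without any 1 array.

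Genes whose pattern over the 6 arrays was most like that of each vault RNA were sought among the 2432 probe sets with a range of at least 1. Pearson correlations over 6 arrays in 3 groups are given as a description. For VTRNA2-1 they were DNM3, a dynamin (r = 0.992), TFCP2L1, a transcription factor (0.987), and PHGDH, the first enzyme of serine synthesis (0.987). PHGDH had 9.80 and 9.64 in shRNA2 cells, 9.06 and 8.53 in shRNA1 cells, and 8.17 and 7.99 in vector cells, the same order of groups as VTRNA2-1. For VTRNA1-1 they were CCDC110 (0.978), MIR548H3 (0.968) and MIR9-3 (0.963), and for VTRNA1-2 they were ARF5, a small GTPase (0.995), MNS1 (0.991) and LINC01088 (0.986). For VTRNA1-3 they were SCARNA12 (0.979), the pseudogene DNM1P35 (0.950) and MIR4270 (0.932). No gene was named for more than 1 vault RNA. Correlations above 0.9 were reached by 86 probe sets for VTRNA2-1, 76 for VTRNA1-2, 39 for VTRNA1-1 and 14 for VTRNA1-3, so that VTRNA1-3 had the fewest close matches.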

How the data were processed

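The authors labelled 250 ng of total RNA, isolated with TRIzol and RNeasy, per array. The deposited values are log2 signals per probe set, made by the authors with RMA in the Affymetrix Expression Console (version not given in the sources used here). The depth of an array is not a count, and 2 arrays per group limit the precision. The arrays' genome build was not given in the sources used here, so no coordinates are printed.

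Of 53617 probe sets, 16098 had 1 gene symbol in the platform annotation and were tested. The 37519 without a single symbol entered an alternative. Neighbouring genes came from RefSeq.

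The 3 groups were fitted together in limma 3.58.1 (R 4.3.3), leaving 3 residual and 4.16 prior degrees of freedom. The Benjamini-Hochberg adjustment ran over all named probe sets, with a threshold of 0.05. Vault RNA differences were taken from the same fit without p-values. Their standard errors rest on the spread pooled over the 3 groups, so each vault RNA has the same one in all comparisons. The members and the lists were chosen with earlier results of these data known. From each list, genes past the threshold were named, or otherwise the 2 with the highest mean. The 5 nearest named genes on each side of the vault RNA genes and the 3 most correlated probe sets per vault RNA were also named. Alternatives changed the normalization, filter, test, arrays in the fit, replicate block and left-out array. Figures were drawn with matplotlib.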

Additional observations from a re-analysis of the deposited data

Results flagged for a closer look

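The responses of MIR539, a microRNA gene, to the hairpins differed by the test of the difference itself: it was -2.405 on the log2 scale in shRNA2 cells minus shRNA1 cells (limma adjusted p = 0.0324), with all 4 single-array differences in that direction. The call was lost with only the 4 arrays compared, with an ordinary t-test, with dim probe sets left out, with all probe sets tested and without any 1 array. No vault RNA was tested in this way.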

How the results depend on the processing

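The vault RNA differences were recomputed with arrays centred on their medians and with quantile normalization, and each moved by less than its spread between replicates. The replicate block cannot move these differences, since each group has 1 array of each replicate number, so it is no check on them. Leaving out 1 array at a time moved 4 of them further: VTRNA1-1 from -0.684 to 0.407 (shRNA1 over vector) and from 1.247 to 2.339 (shRNA2 over vector), and VTRNA1-2 from -0.045 to 0.853 (shRNA1 over vector) and from 0.878 to 1.776 (shRNA2 over shRNA1). VTRNA1-3, shRNA2 over shRNA1, also changed sign without 1 array, at -0.205 to 0.514. VTRNA2-1 stayed at 2.105 to 2.820 with shRNA2 and 0.765 to 1.795 with shRNA1.

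The number of named probe sets past the adjusted threshold, 414 with shRNA2, 301 with shRNA1 and 1 between the lines, depended more on the settings. It was 2, 1 and 2 by an ordinary t-test with the same adjustment. The paper names the software of its array statistics but not the test, so this is not the authors' own count. With the replicate block it was 1180, 535 and 370. Without 1 array it was 6 to 392, 111 to 138 and 0 in each case. For shRNA1 it was 111 with only the 4 arrays compared and 195 with all probe sets of the table tested. Between the lines it was 0 with only the 4 arrays compared or with dim probe sets left out, 15 with an intensity trend, 2 with arrays centred on their medians, 8 with all probe sets and 28 with 1 probe set per gene.

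Over the 80 probe sets of the 7 fixed lists, 2 were higher and 1 lower with shRNA2, and 0 with shRNA1 and between the lines. The shares over all named probe sets were 1.07% higher and 1.50% lower with shRNA2. At an unadjusted p under 0.05 there were 17, 11 and 12 by limma (shRNA2, shRNA1, between the lines) and 9, 5 and 6 by the ordinary t-test. The share of all named probe sets under that cut was not counted. The 2 higher were 0 by the t-test, with all probe sets tested, and without either shRNA2 or either vector array, and 3 without either shRNA1 array and with only the 4 arrays compared. The 1 lower, OASL, was 0 under the t-test, only the 4 arrays compared, centred arrays, quantile normalization, all probe sets and without any 1 array. With shRNA1, 1 gene of the autophagy list was lower with centred arrays and with quantile normalization. Between the lines OASL, of the RNA sensing list, was lower with 1 probe set per gene. The 31 microRNA calls with shRNA2 were 105 with the replicate block, 9 with all probe sets and 10 without dim probe sets. With the replicate block, 7 list members were higher and 3 lower with shRNA2, 1 lower with shRNA1, and 2 higher and 1 lower between the lines. Under that block 1180 of all 16098 named probe sets were called in either direction with shRNA2, 535 with shRNA1 and 370 between the lines. The shares given above belong to the main fit and are no background for the counts under the block. The labels tie no replicate number to an experiment. Across probe sets, replicate 2 minus replicate 1 had a correlation of 0.626 for shRNA1 with vector, 0.145 for shRNA2 with vector and 0.150 for shRNA2 with shRNA1, over only 2 replicate numbers. These are positive but low with shRNA2 and do not settle whether the numbers pair the arrays, so the block is given as an alternative only. The cause of these shifts was not tested.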
